A study of Homo sapiens with 12 samples.

Results

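HLA class I and antigen presentation genes were examined as 9 genes, HLA-B, HLA-C, HLA-E, B2M, TAP1, TAP2, TAPBP, NLRC5 and CIITA, out of 28278 gene symbols in the count table. They were taken by symbol as a list described as low in K562. The counts below differed widely between these genes. All 9 were found in the table. K562 is an established erythroleukaemia cell line. RNA sequencing covered 4 groups of 3 libraries each, which were untreated WT cells, WT cells given sodium butyrate, untreated HRG1-KO cells and HRG1-KO cells given sodium butyrate. Untreated WT libraries each held at most 15 counts of HLA-B, 8 of NLRC5 and 0 of HLA-C. They each held at least 8985 counts of B2M, 4705 of TAPBP, 4536 of HLA-E and 3151 of TAP2, so these genes were clearly detected. Only K562 was measured, so whether any gene is low relative to other cell types was not tested. TAP1 was at 75 to 688 counts there and CIITA at 58 to 111. Sodium butyrate is a short-chain fatty acid salt that inhibits histone deacetylases. It was used at 0.75 mM, first 24 h after plating and again 48 h later, and cells were harvested 6 h after the second dose, with the series placing all groups at day 8 of differentiation. HRG1 is a haem transporter encoded by SLC48A1. How the knockout was made and how many KO clones were used are not given in the sources used here, so an effect of the knockout and a difference between cell clones cannot be told apart.

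Class I molecules are built from a heavy chain, such as HLA-B, HLA-C or HLA-E, and the light chain β2-microglobulin, the product of B2M. Peptides made by the proteasome are pumped into the endoplasmic reticulum by the TAP1 and TAP2 transporter and loaded with the help of tapasin, encoded by TAPBP. NLRC5 is the transactivator of class I genes and CIITA that of class II genes. Both act through the RFX, CREB/ATF and NF-Y proteins bound at the promoter, and K562 is widely used as a target of natural killer cells because it shows little class I on its surface.

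Promoters of HLA-B and HLA-C are shown because both genes were called higher in KO and with butyrate, and those of B2M and TAP1 because they share elements with them and were not called between genotypes. Each sequence is the 250 bases before the annotated start from RefSeq (GRCh38.p14), written in the direction of transcription, and capitals mark every match on either strand to 5 motifs. The motifs were an interferon-stimulated response element (GAAA, any 2 bases and GAAA), an interferon-gamma-activated site (TTCNNNGAA), the kappa B consensus, the Y box (ATTGG) and the X2 or CRE core (TGACG). Adjacent matches can overlap, as the tandem interferon-stimulated response elements of B2M and TAP1 do. HLA-B lies on the minus strand with this window at chr6:31357180-31357429, and HLA-C lies on the minus strand at chr6:31272093-31272342. B2M lies on the plus strand at chr15:44711267-44711516, and TAP1 on the minus strand at chr6:32853705-32853954.
HLA-B: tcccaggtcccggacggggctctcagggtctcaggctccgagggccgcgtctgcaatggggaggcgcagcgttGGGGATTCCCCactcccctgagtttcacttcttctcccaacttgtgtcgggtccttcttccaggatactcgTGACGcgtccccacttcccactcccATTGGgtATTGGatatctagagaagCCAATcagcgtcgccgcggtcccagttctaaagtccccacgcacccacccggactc
HLA-C: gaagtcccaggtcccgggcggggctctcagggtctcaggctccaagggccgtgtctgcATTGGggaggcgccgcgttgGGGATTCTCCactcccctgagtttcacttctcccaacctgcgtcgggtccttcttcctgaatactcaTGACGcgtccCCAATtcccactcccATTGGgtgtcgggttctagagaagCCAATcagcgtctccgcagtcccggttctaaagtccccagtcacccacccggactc
B2M: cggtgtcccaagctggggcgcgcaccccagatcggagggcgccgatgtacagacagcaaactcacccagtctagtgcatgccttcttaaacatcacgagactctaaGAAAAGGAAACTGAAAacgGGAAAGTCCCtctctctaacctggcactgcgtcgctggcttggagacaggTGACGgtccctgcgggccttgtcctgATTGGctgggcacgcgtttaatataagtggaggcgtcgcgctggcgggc
TAP1: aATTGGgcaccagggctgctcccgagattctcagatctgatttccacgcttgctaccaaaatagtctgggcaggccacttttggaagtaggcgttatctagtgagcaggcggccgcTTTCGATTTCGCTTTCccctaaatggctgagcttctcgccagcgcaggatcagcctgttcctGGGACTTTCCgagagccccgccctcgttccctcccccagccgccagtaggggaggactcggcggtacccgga

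The HLA-B and HLA-C windows were identical at 226 of 254 aligned columns (89.0%). Both held a kappa B match, a TGACG core and several Y boxes, with 3 Y box matches in HLA-B and 4 in HLA-C. Among the 35116 RefSeq promoter windows of the same length, 9.96% held the kappa B consensus, 21.2% TGACG and 32.0% ATTGG. B2M held a kappa B match, TGACG and ATTGG as well, and it also held 2 interferon-stimulated response element matches, a motif present in 3.02% of windows. TAP1 and TAPBP each held 2 such matches and TAP2 held 1, while the letters of this motif were not in the HLA-B or HLA-C window. Only exact matches were searched, so an element that departs from these letters would be missed in any window. No window at an annotated start of these 6 genes held TTCNNNGAA, which 6.57% of all windows did. Sequences were matched for 6 of the 9 genes, and HLA-E, NLRC5 and CIITA had no entry.

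Library totals ranged from 19963594 to 30348538 counts. Levels are given as CPM, counts scaled to library size with TMM factors, and the limit of 3 counts corresponded to 0.0953 to 0.162 CPM depending on the library. SLC48A1 fell in KO cells, from 65.4 to 82.2 CPM in untreated WT to 2.94 to 8.32 CPM in untreated KO (adjusted p = 1.82e-05, edgeR quasi-likelihood test with Benjamini-Hochberg adjustment, used for every adjusted p below unless another is named). The 4 libraries numbered 1 had the largest share of counts on the ribosomal RNA gene RNA28SN5 within their groups, over a range of 0.673% to 5.63% in all libraries. All 12 K562 and erythroid markers were detected in all 4 groups, with a summed level of 8369 to 18095 CPM in untreated WT, 26579 to 57159 in treated WT, 3947 to 6520 in untreated KO and 4676 to 6788 in treated KO. The embryonic globin HBE1 averaged 4348 CPM in untreated WT and 17.2 CPM in untreated KO. Dendritic cell markers were at or under 3 counts in every library (5 of 5 genes). The B cell marker MS4A1 and the macrophage marker MARCO, picked after their values were seen, were near 0. Other genes of these 2 lists were detected, and 4 of 6 B cell and 5 of 7 monocyte and macrophage markers passed the filter on low counts. Summed T cell markers (5 genes) were 7.01 to 16.4 CPM in untreated WT, 6.07 to 13.1 in treated WT, 1.34 to 2.76 in untreated KO and 3.40 to 6.24 in treated KO. Summed natural killer cell markers (6 genes) were higher in untreated KO, at 59.0 to 157 CPM against 14.6 to 27.9 CPM in untreated WT, and NCR1 averaged 107 and 14.2 CPM of these. In treated cells that sum was 37.9 to 50.1 CPM in WT and 48.5 to 215 in KO. Only 3 of these 6 genes passed the filter on low counts. For KO over WT, 2 were higher and 1 lower in untreated cells, with a median of 0.01 (log2). In treated cells 1 was higher and 2 lower, with a median of -0.41. In the order untreated WT, treated WT, untreated KO and treated KO, the summed B cell markers were 13.2 to 18.1, 10.1 to 31.6, 3.05 to 6.55 and 6.52 to 16.2 CPM. Summed monocyte markers were 26.5 to 37.0, 53.0 to 67.1, 5.94 to 18.6 and 41.6 to 84.4 CPM, stromal markers 2.65 to 5.21, 44.0 to 110, 2.35 to 5.12 and 69.1 to 157 CPM, and megakaryocyte markers 30.6 to 52.6, 101 to 211, 15.0 to 54.5 and 76.8 to 101 CPM. The part of any of these in the results below was not tested. In bulk RNA, more cells that express a gene and more RNA per cell cannot be told apart.

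HLA-C was the member that differed most between the genotypes. HLA-C encodes a classical heavy chain recognised by both T cells and natural killer cell receptors. Its counts were 0 in all 3 untreated WT libraries. In treated WT they gave 0.363, 0.939 and 1.46 CPM in replicates 1, 2 and 3. In untreated KO the values were 30.6, 48.0 and 105 CPM, and in treated KO 197, 213 and 333 CPM. No library of one group overlapped with another, and every KO library stood above every WT library. Against the limit of 3 counts per library, HLA-C was at least 455-fold higher in untreated KO than in untreated WT (adjusted p = 1.13e-05). In treated cells it rose by 8.01 on the log2 scale in KO over WT (SE 0.64, n = 3 per group, adjusted p = 1.75e-05).

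HLA-B, the classical heavy chain with the most alleles, was also lowest in untreated WT and highest in treated KO, at lower levels than HLA-C in KO cells. Counts in untreated WT were 0, 0 and 15, or 0, 0 and 0.504 CPM. In treated WT they reached 2.59, 5.08 and 5.12 CPM. Untreated KO libraries held 2.94, 2.76 and 12.3 CPM and treated KO libraries 50.2, 55.9 and 90.5 CPM. Treated WT and untreated KO overlapped, while untreated WT lay below and treated KO above both. HLA-B rose by 4.90 (log2, SE 0.92, adjusted p = 0.00219) in untreated KO over WT and by 3.94 (SE 0.77, adjusted p = 0.00362) in treated KO over WT. Its size in untreated cells rests on 1 library, since without untreated WT replicate 3 the fitted value was 10.2 and the WT group was then all 0. Without untreated KO replicate 3, its highest library there, it was 3.78.

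NLRC5, the class I transactivator, was the third member called between genotypes. Untreated WT libraries held 0, 8 and 3 counts, or 0, 0.371 and 0.101 CPM, and treated WT libraries 0.259, 0.256 and 0.604 CPM. In untreated KO it was 6.26, 7.47 and 8.99 CPM, and in treated KO 44.3, 44.7 and 28.2 CPM. All 6 KO libraries stood above all 6 WT libraries, and treated KO above untreated KO. NLRC5 rose by 5.54 (log2, SE 0.65, adjusted p = 7.88e-05) in untreated KO and by 6.64 (SE 0.63, adjusted p = 2.03e-05) in treated KO, each over WT. Without untreated WT replicate 2 the former was 6.87.

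**Figure D1:**
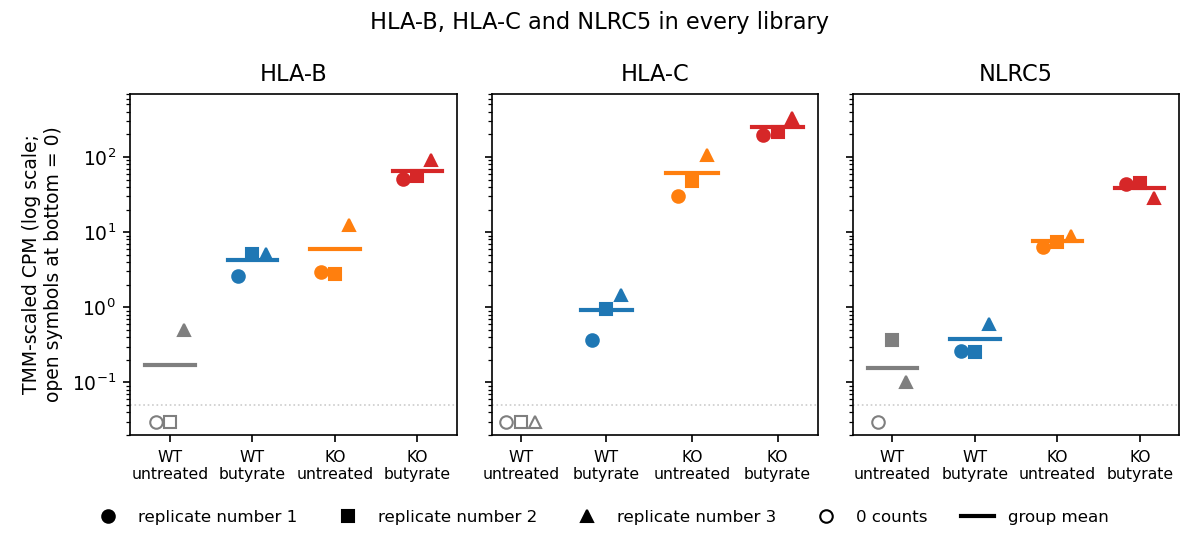
CPM on a log axis for HLA-B, HLA-C and NLRC5 in each library of the 4 groups, with a line at the group mean and open symbols at the bottom for 0 counts. HLA-C was at 0 in all 3 untreated WT libraries and at 197 to 333 CPM in treated KO.

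Between genotypes, 3 of the 9 genes rose in untreated KO cells, where 22.6% of the 15805 genes tested were called and 11.7% were called higher. In treated cells 3 of 9 rose, where 19% of all genes were called and 10.1% were called higher. No member was called lower in either setting. The median log2 fold change over the 9 genes was 0.45 in untreated and 0.32 in treated cells, against 0.02 and -0.00 over all genes tested. KO libraries lay above all WT libraries for HLA-B, HLA-C and NLRC5 in both settings, and for 22.2% of all genes in untreated and 17.9% in treated cells. HLA-C and NLRC5 passed the filter on low counts only through KO libraries, so they had to differ, and their calls are given as a description. HLA-B was above that filter in all 3 treated WT libraries and in 1 untreated WT library. Both HLA-B calls held in each of the 6 fits that left out 1 library. In treated cells HLA-B lost the call when all 4 libraries numbered 2 were left out together (adjusted p = 0.0678), where 4.23% of all genes were called.

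HLA-E and B2M were detected in every library. HLA-E presents leader peptides of other class I chains to the NKG2A receptor of natural killer cells. In replicates 1, 2 and 3 it was at 246, 423 and 456 CPM in untreated WT and at 279, 707 and 769 CPM in treated WT. It was at 106, 162 and 413 CPM in untreated KO and at 275, 584 and 940 CPM in treated KO. The groups overlapped in every comparison, and the library numbered 1 was the lowest of each group. The KO difference was -0.72 (log2, adjusted p = 0.386) in untreated and 0.04 (adjusted p = 0.976) in treated cells. With the replicate number as a block, the value in untreated cells was -0.90 and passed (adjusted p = 0.0117).

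B2M, the light chain shared by all class I molecules, varied least. It was at 487, 453 and 525 CPM in untreated WT, 505, 453 and 479 in treated WT, 612, 490 and 894 in untreated KO and 608, 464 and 679 in treated KO. All groups overlapped. The KO difference was 0.45 (log2, SE 0.23, adjusted p = 0.193) in untreated and 0.28 (adjusted p = 0.443) in treated cells, and neither passed the test.

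TAP1, a subunit of the peptide transporter, was not called between genotypes. TAP1 was at 4.06, 23.7 and 23.1 CPM in untreated WT and at 6.85, 10.3 and 34.0 CPM in untreated KO. With butyrate it was at 9.69, 71.1 and 62.3 CPM in WT and at 9.28, 81.9 and 87.1 CPM in KO. The library numbered 1 was the lowest in each group, and it overlapped with the untreated libraries in both genotypes. The KO difference of TAP1 was 0.01 (log2, adjusted p = 0.996) in untreated cells, its sign turned to -0.01 with RLE size factors and -0.03 with library size alone, and it was 0.32 (adjusted p = 0.858) in treated cells.

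TAP2 encodes the partner subunit of TAP1. It was at 171, 163 and 153 CPM in untreated WT, 30.5, 127 and 97.6 in treated WT, 168, 300 and 276 in untreated KO and 91.9, 222 and 215 in treated KO. In both settings 2 of 3 KO libraries stood above all WT libraries and the KO library numbered 1 did not. The KO difference was 0.61 (log2, adjusted p = 0.360) in untreated and 1.05 (adjusted p = 0.124) in treated cells. It passed in treated cells with the replicate block, at 1.12 (adjusted p = 0.0175). Without the 4 libraries numbered 1 it passed in both, at 0.85 (adjusted p = 0.00954) in untreated and 0.94 (adjusted p = 0.00676) in treated cells.

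TAPBP and CIITA were not called between genotypes. TAPBP, the bridge between the transporter and the heavy chain, was at 255, 345 and 318 CPM in untreated WT and 215, 250 and 404 in untreated KO. With butyrate it was at 164, 236 and 237 CPM in WT and 201, 211 and 320 in KO. CIITA was at 3.95, 2.69 and 3.73 CPM in untreated WT and 3.48, 2.19 and 2.78 in untreated KO. With butyrate it was at 4.20, 4.61 and 4.45 CPM in WT and 4.41, 5.78 and 3.22 in KO. Groups of both genes overlapped between genotypes in both settings.

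**Figure D2:**
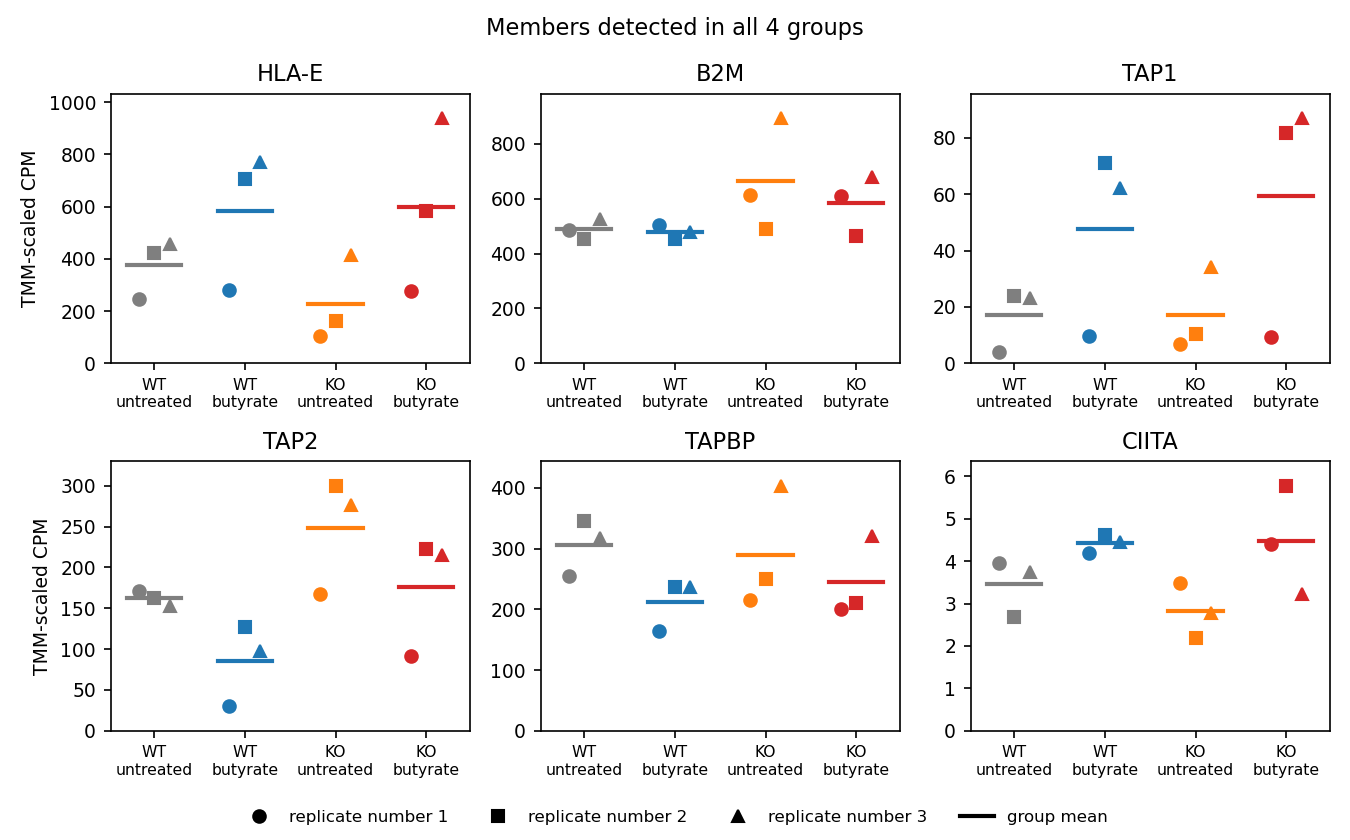
CPM on linear axes from 0 for HLA-E, B2M, TAP1, TAP2, TAPBP and CIITA in each library, with symbols for the replicate number and a line at the group mean. TAP1 in the library numbered 1 was at 9.69 CPM in treated WT and 9.28 CPM in treated KO, far below the other two of each group.

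Butyrate was compared with no treatment within each genotype. The 4 comparisons share groups of libraries, so a gene's values in them are not independent. In WT cells 2 of the 9 genes rose, HLA-B and HLA-C, where 2.35% of all genes were called and 1.8% were called higher. HLA-B rose by 4.40 (log2, SE 0.92, adjusted p = 0.0310) from a mean of 0.168 ± 0.291 to 4.26 ± 1.45 CPM (SD, n = 3). HLA-C was at least 6.87-fold higher than the limit of 3 counts (adjusted p = 0.0278), with 0.921 ± 0.550 CPM (SD, n = 3) in treated WT. Both remained under 6 CPM, and the 2 genes summed in 1 row gave 4.65 (log2, adjusted p = 0.0144). NLRC5 in WT was 1.26 (log2, SE 0.69, adjusted p = 0.372).

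The WT calls were lost in most fits that left out 1 library. Of all genes, 0.39%, 0.262% and 0.97% were called without untreated WT replicate 1, 2 or 3. Without treated WT replicate 1, 2 or 3 the share was 7.63%, 0.398% and 0.896%. A general loss of calls and a dependence of these genes on particular libraries were not told apart. HLA-B was no longer called without untreated WT replicate 1 (adjusted p = 0.116) or 2 (0.111), or without treated WT replicate 2 (0.0979) or 3 (0.0764), and its fitted value was 9.71 without untreated WT replicate 3. HLA-C was no longer called without untreated WT replicate 1 (adjusted p = 0.0880), 2 (0.0918) or 3 (0.0795), or without treated WT replicate 2 (0.0845) or 3 (0.0811).

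In KO cells 3 of the 9 genes rose with butyrate, HLA-B, HLA-C and NLRC5, where 3.4% of all genes were called and 2.8% were called higher. HLA-B rose by 3.44 (log2, SE 0.75, adjusted p = 0.0303), from 6.00 ± 5.46 to 65.6 ± 21.8 CPM (SD, n = 3). HLA-C rose by 2.02 (log2, SE 0.47, adjusted p = 0.0458), from 61.1 ± 38.8 to 248 ± 74.4 CPM. NLRC5 rose by 2.37 (log2, SE 0.50, adjusted p = 0.0278), from 7.57 ± 1.37 to 39.1 ± 9.41 CPM. All treated KO libraries lay above all untreated ones for these 3 genes, and for 12.6% of all genes.

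These KO calls were also lost in most fits that left out 1 library. Of all genes, 0.688%, 0.292% and 1.75% were called without untreated KO replicate 1, 2 or 3. Without treated KO replicate 1, 2 or 3 the share was 5.09%, 0.525% and 1.54%. Without untreated KO replicate 1, untreated KO replicate 2 or treated KO replicate 2 none of the 3 was called, with adjusted p of 0.116, 0.154 and 0.104 for HLA-B, 0.135, 0.200 and 0.132 for HLA-C, and 0.108, 0.141 and 0.131 for NLRC5. HLA-B and HLA-C were also lost without treated KO replicate 3 (adjusted p = 0.0922 and 0.132), and NLRC5 without untreated KO replicate 3 (0.0664). HLA-C was at adjusted p = 0.0553 with library size alone, and the summed HLA-B and HLA-C row was at 2.22 (log2, adjusted p = 0.0565). Without untreated KO replicate 3 the fitted values were 4.53 for HLA-B and 2.66 for HLA-C.

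Among the other members, TAP2 and TAPBP were lower in all 3 treated than in all 3 untreated WT libraries, and CIITA was higher, without passing the test. In WT their differences were -0.93 for TAP2 (log2, adjusted p = 0.300), -0.53 for TAPBP (adjusted p = 0.341) and 0.35 for CIITA (adjusted p = 0.675). Groups did not overlap, with treated lower, for 10.4% of all genes in WT, and with treated higher for 11.3%. In KO the values were -0.49 for TAP2, -0.25 for TAPBP and 0.67 for CIITA, and groups overlapped. B2M was at -0.03 in WT and -0.19 in KO.

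The libraries numbered 1 were the lowest of their group for TAP1 and HLA-E, treated or untreated, and the replicate block changed further butyrate calls. With the block, 4 members were called in WT and 5 in KO, where 8.61% and 11.7% of all genes were called. TAP1 was at 1.49 (log2, adjusted p = 0.433) in WT and 1.80 (adjusted p = 0.308) in KO without the block, and at 1.44 (adjusted p = 0.0348) and 1.49 (adjusted p = 0.0271) with it. HLA-E in KO was at 1.40 (log2, adjusted p = 0.181) without and 1.44 (adjusted p = 0.00352) with the block, and TAP2 in WT at -1.17 (adjusted p = 0.0413) with it. Without the libraries numbered 1, TAP1 passed in WT (1.50, adjusted p = 0.0442) and in KO (1.90, adjusted p = 0.0179), as did HLA-E in KO (1.38, adjusted p = 0.0441). Every butyrate call among the members was lost without the libraries numbered 2, where edgeR called 0 of 16183 genes in either genotype, with 998 in WT and 1004 in KO at an unadjusted p under 0.05. HLA-B was then at 3.75 (log2) in WT and 3.19 in KO, and in KO HLA-C was at 1.95 and NLRC5 at 2.25.

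**Figure D3:**
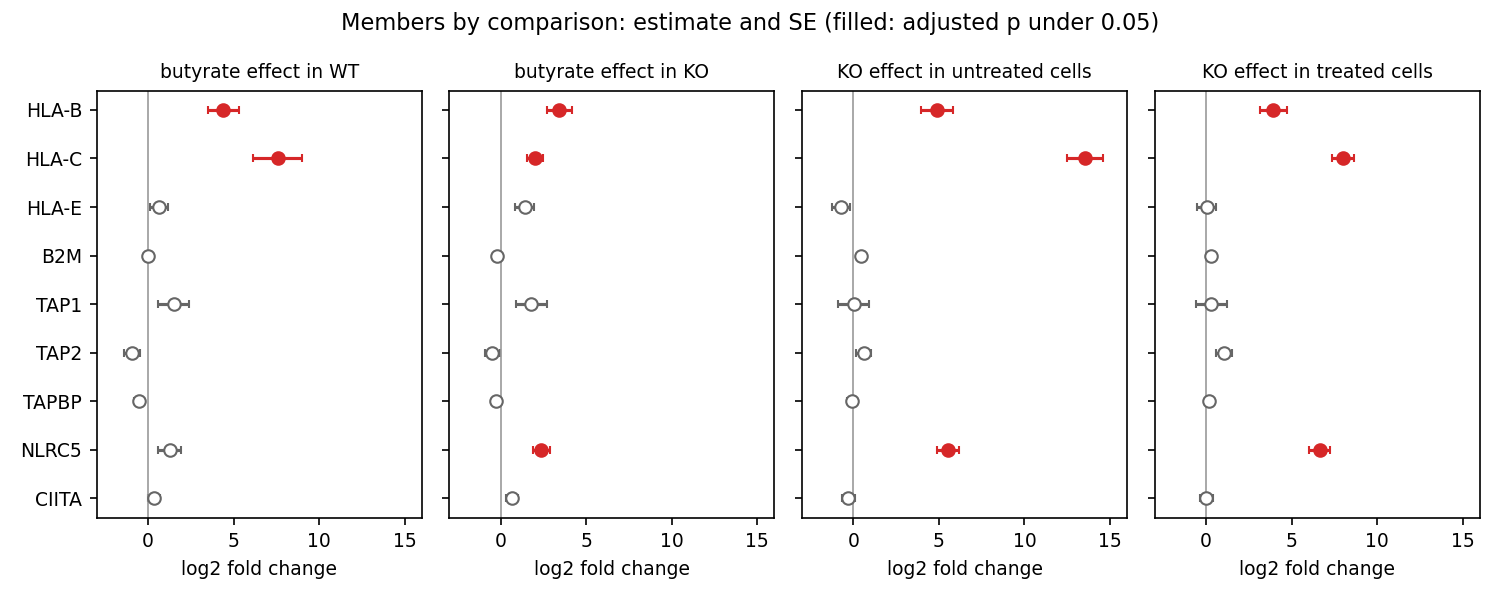
Log2 fold change of each of the 9 genes in the 4 comparisons, with bars of 1 SE and filled symbols where the adjusted p was under 0.05. The filled symbols are HLA-B, HLA-C and NLRC5, at 2.02 or above throughout, and the HLA-C values against untreated WT (7.57 and 13.56) depend on the prior count because that group was at 0.

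The difference between the butyrate effects in KO and WT was tested as an interaction. By edgeR 0 of 15805 genes passed, with 658 at an unadjusted p under 0.05, and DESeq2 called 81. None of the 9 genes passed. NLRC5 differed by 1.11 (log2, adjusted p = 1.00) and HLA-B by -0.96 (adjusted p = 1.00). HLA-C was at -5.56 (adjusted p = 0.876), a size that depends on the prior count. That NLRC5 was called with butyrate in KO and not in WT therefore does not show that its response differed.

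The split of counts between HLA-B and HLA-C differed between groups, a description chosen after the values were seen. HLA-B made up 87.7%, 84.4% and 77.8% of the counts of the pair in treated WT (Wilson 95% confidence intervals 76.8 to 93.9, 77.5 to 89.5 and 71.6 to 82.9). In untreated KO its share was 8.77%, 5.44% and 10.5%, and in treated KO 20.4%, 20.8% and 21.4%. In untreated WT all 15 counts of the pair came from HLA-B in replicate 3. Groups did not overlap for treated KO against treated WT or against untreated KO (exact permutation test, two-sided, p = 0.1 for each of 2 comparisons, the smallest p that 3 against 3 allows). HLA-B and HLA-C are near-identical, and how reads that fit both were counted is not given in the sources used here.

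**Figure D4:**
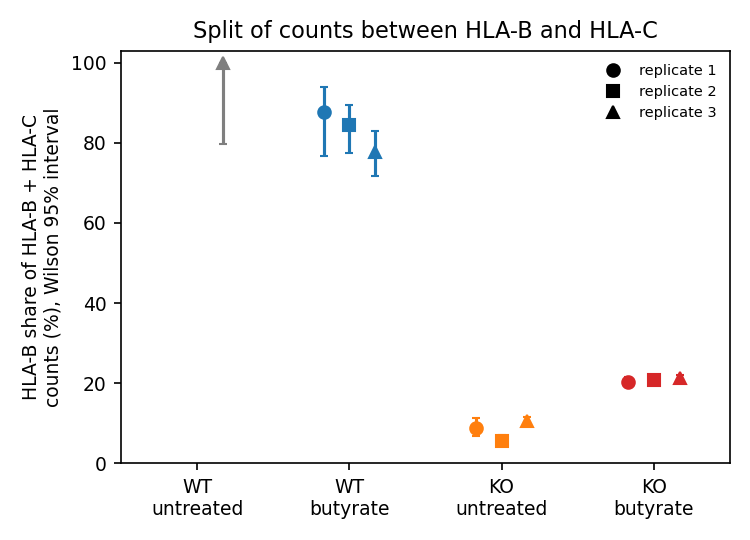
HLA-B counts as a percentage of HLA-B plus HLA-C counts in each library, with Wilson 95% intervals for counting error only. Treated WT libraries lie at 77.8% to 87.7%, untreated KO at 5.44% to 10.5% and treated KO at 20.4% to 21.4%.

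Levels were ordered by CPM per kilobase of exon (GENCODE v29), which allows genes of different length to be compared. In untreated WT the order was B2M (205 CPM per kb), HLA-E (144), TAPBP (72.9), TAP2 (26.2), TAP1 (5.73), CIITA (0.215), HLA-B (0.106), NLRC5 (0.0231) and HLA-C (0). The first 6 of these did not overlap with their neighbours in the order down to CIITA, while CIITA overlapped with HLA-B, HLA-B with NLRC5 and NLRC5 with HLA-C. In treated WT the order was HLA-E (225), B2M (201), TAPBP (50.6), TAP1 (16.1), TAP2 (13.8), HLA-B (2.69), HLA-C (0.593), CIITA (0.274) and NLRC5 (0.0547), and HLA-E overlapped with B2M, TAP1 with TAP2 and HLA-C with CIITA. In untreated KO it was B2M (280), HLA-E (87.4), TAPBP (69.0), TAP2 (40.2), HLA-C (39.3), TAP1 (5.76), HLA-B (3.78), NLRC5 (1.11) and CIITA (0.175), and HLA-E overlapped with TAPBP, TAP2 with HLA-C and TAP1 with HLA-B. HLA-C there also overlapped with TAPBP and HLA-E, and HLA-E with TAP2. In treated KO, HLA-C was the third of the 9 at 159 ± 47.8 CPM per kb (SD, n = 3), behind B2M at 245 ± 46.2 and HLA-E at 230 ± 128, with overlapping ranges. TAPBP (58.2), HLA-B (41.3 ± 13.7), TAP2 (28.6) and TAP1 (20.1) followed, and NLRC5 and CIITA were the lowest at 5.73 ± 1.38 and 0.278 ± 0.0795. Each of TAPBP, HLA-B, TAP2 and TAP1 overlapped with the next in that order, which for TAP1 was NLRC5, while NLRC5 did not overlap with CIITA.

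Counts of other genes of the pathway were set beside the shares of all genes called, which were 22.6% for KO in untreated cells, 19% in treated cells, and 2.35% and 3.4% for butyrate in WT and KO. The other class I heavy chain list held 12 genes, of which 11 were found and 7 were tested. Of these, 1 rose in untreated KO and 2 in treated KO, 0 fell, and none was called with butyrate. FCGRT, which encodes the heavy chain of the neonatal Fc receptor and pairs with B2M, was at 0 to 0.922 CPM in WT and 29.2 to 72.4 CPM in KO, and it rose by 8.11 (adjusted p = 8.32e-06) and 6.21 (adjusted p = 3.03e-05). Both FCGRT calls held in all 6 fits without 1 library, with values of 7.59 to 10.6 in untreated cells. The pseudogene HLA-H rose by 3.37 in treated KO (adjusted p = 0.0267) but was lost without treated KO replicate 3 (0.121) or treated WT replicate 2.

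The immunoproteasome replaces the catalytic subunits of the standard proteasome and changes which peptides are cut. Of 6 genes tested for it and its activator, 1 rose in untreated KO, 0 in treated KO, 0 with butyrate in WT and 1 with butyrate in KO. PSMB8, a neighbour of TAP1, was at 0 in all untreated WT libraries and at 0, 2.28 and 16.6 CPM in untreated KO, which overlap at 0 (adjusted p = 0.0269, lost without KO replicate 3 at 0.0933 and without any 1 of the 3 WT libraries). In treated cells PSMB8 was at 0, 1.02 and 3.81 CPM in WT and 12.2, 45.7 and 56.5 CPM in KO (4.52, adjusted p = 0.0722). PSMB8 passed the filter on low counts only through KO libraries, so its call between genotypes is given as a description. PSMB9, another neighbour of TAP1, went from 0, 0 and 2.17 CPM to 19.1, 43.3 and 57.7 CPM with butyrate in KO (5.65, adjusted p = 0.0459). In WT it went from 0, 2.46 and 3.80 to 13.3, 83.6 and 33.8 CPM (4.35, adjusted p = 0.103). The PSMB9 call in KO was lost in 4 of 6 fits without 1 library (untreated KO replicate 1 or 2, treated KO replicate 2 or 3), with a highest adjusted p of 0.175, and its value was 12.9 without untreated KO replicate 3, which leaves that group at 0.

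Of the 14 class II genes found, 5 had at most 3 counts in every library. Of the 14, 7 passed the filter and were tested, and 1 rose in treated KO while 0 were called in the other 3 comparisons. HLA-DMA, a peptide exchange factor of class II, was at 1.81, 0.299 and 2.03 CPM in treated WT and 8.45, 8.23 and 5.74 CPM in treated KO, and it rose by 2.43 (adjusted p = 0.0139) in all 6 fits without 1 library. HLA-DRB5 had 0 counts in all libraries, and HLA-DRB1 was at 0 in all but 1.

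The peptide loading and trimming list (19 genes tested) had 4 genes higher and 2 lower in untreated KO, 5 higher and 1 lower in treated KO, against 22.6% and 19% of all genes called, and 0 called with butyrate in either genotype. TPP2, a cytosolic peptidase, rose by 1.22 (log2, adjusted p = 0.000297) in untreated and 0.92 (adjusted p = 0.00251) in treated KO, and both calls held in all 6 fits without 1 library. BCAP31, an endoplasmic reticulum export factor for class I, fell by 0.84 (adjusted p = 0.0166) and 0.78 (adjusted p = 0.0274), but was lost in untreated cells without WT replicate 1 (0.0790), KO replicate 2 or KO replicate 3, and in treated cells without WT replicate 1 or 2 or KO replicate 1 or 3 (0.0771).

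Of 17 transcription factors and cofactors of MHC genes tested, 1 was higher and 2 lower in untreated KO, and 2 higher and 1 lower in treated KO, against the same 22.6% and 19%. RFXAP, a subunit of the RFX complex that binds the X box, rose from 11.8, 14.6 and 11.9 CPM in untreated WT to 35.5, 44.0 and 33.6 CPM in untreated KO (1.56, adjusted p = 0.000219), and by 1.06 (adjusted p = 0.00368) in treated KO, in all 6 fits without 1 library in each setting. NFYA, a subunit of the Y box factor NF-Y, fell by 1.02 (adjusted p = 0.00746) in untreated KO in all 6 fits, and by 0.89 (adjusted p = 0.0190) in treated KO, where it was lost without treated KO replicate 1 (0.0676) or 3. With butyrate, 0 of 17 were called in WT and 1 in KO, NFYB, which fell by 0.80 (adjusted p = 0.0412) and lost the call whichever library was left out (highest adjusted p 0.180).

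The interferon receptor and JAK-STAT list (15 genes tested) had 1 higher and 1 lower in untreated KO, 2 higher and 1 lower in treated KO (22.6% and 19% of all genes), 1 lower with butyrate in WT and 1 higher with butyrate in KO (2.35% and 3.4%). SOCS1, a feedback inhibitor of JAK kinases, rose from 8.37 to 16.4 CPM in untreated WT to 23.7 to 36.0 CPM in untreated KO (1.30, adjusted p = 0.0167), a call lost without untreated WT replicate 2, untreated WT replicate 3 (0.0772) or untreated KO replicate 3. IFNGR2, a chain of the interferon-gamma receptor, fell by 1.08 with butyrate in WT (adjusted p = 0.0222), a call lost in 4 of 6 fits without 1 library (untreated WT replicate 1 or 2, treated WT replicate 2 or 3, highest adjusted p 0.100). It was 0.89 higher in treated KO than in treated WT (adjusted p = 0.00955) in all 6 fits. SOCS3, another feedback inhibitor, rose by 1.21 with butyrate in KO (adjusted p = 0.0262), a call lost without untreated KO replicate 1 or 2 or treated KO replicate 2 or 3 (highest adjusted p 0.138). STAT2 fell by 0.87 (adjusted p = 0.0195) in untreated KO, a call lost in 4 of 6 fits (untreated WT replicate 3 or any 1 KO library, highest adjusted p 0.0759).

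PRC2 and the HUSH complex are known silencers of class I genes in tumour lines. Of 16 genes tested, 2 were higher and 0 lower in untreated KO, 1 higher and 0 lower in treated KO, and 0 were called with butyrate. JARID2, an accessory PRC2 subunit, rose by 1.00 (log2, adjusted p = 0.0165) in untreated KO but was lost without untreated WT replicate 1, untreated WT replicate 2 or untreated KO replicate 2 (0.0787). The catalytic subunit EZH2 was at 142 to 215 CPM in untreated WT and 96.5 to 177 in untreated KO. Of 13 genes of class I turnover, 1 rose and 1 fell in untreated KO, 1 rose in treated KO and 0 were called with butyrate. The last was MARCHF4, a ubiquitin ligase that lowers surface class I, at 0.622, 0 and 0.222 CPM in treated WT and 13.5, 4.20 and 2.61 CPM in treated KO (4.60, adjusted p = 0.0392, lost without treated KO replicate 1 at 0.127, treated KO replicate 2, or treated WT replicate 2 or 3).

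Medians over the tested genes of each list, for KO in untreated and treated cells, were 0.22 and 0.64 (log2) for the other class I genes, 0.16 and 0.26 for peptide loading, 0.05 and 0.19 for the immunoproteasome, 0.29 and 0.06 for transcription factors, -0.15 and -0.21 for interferon signalling, 0.07 and -0.13 for PRC2 and HUSH, and 0.18 and -0.02 for turnover. The class II medians over 7 genes were -0.39, the value of HLA-DMA, and 1.73, that of HLA-DPB1, which had 0 counts in at least 1 library of each group. For butyrate in WT and KO the medians of the 7 lists other than class II lay between -0.26 and 0.12, and those of class II were -0.31 and 2.10, the latter again the value of HLA-DMA.

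**Figure D5:**
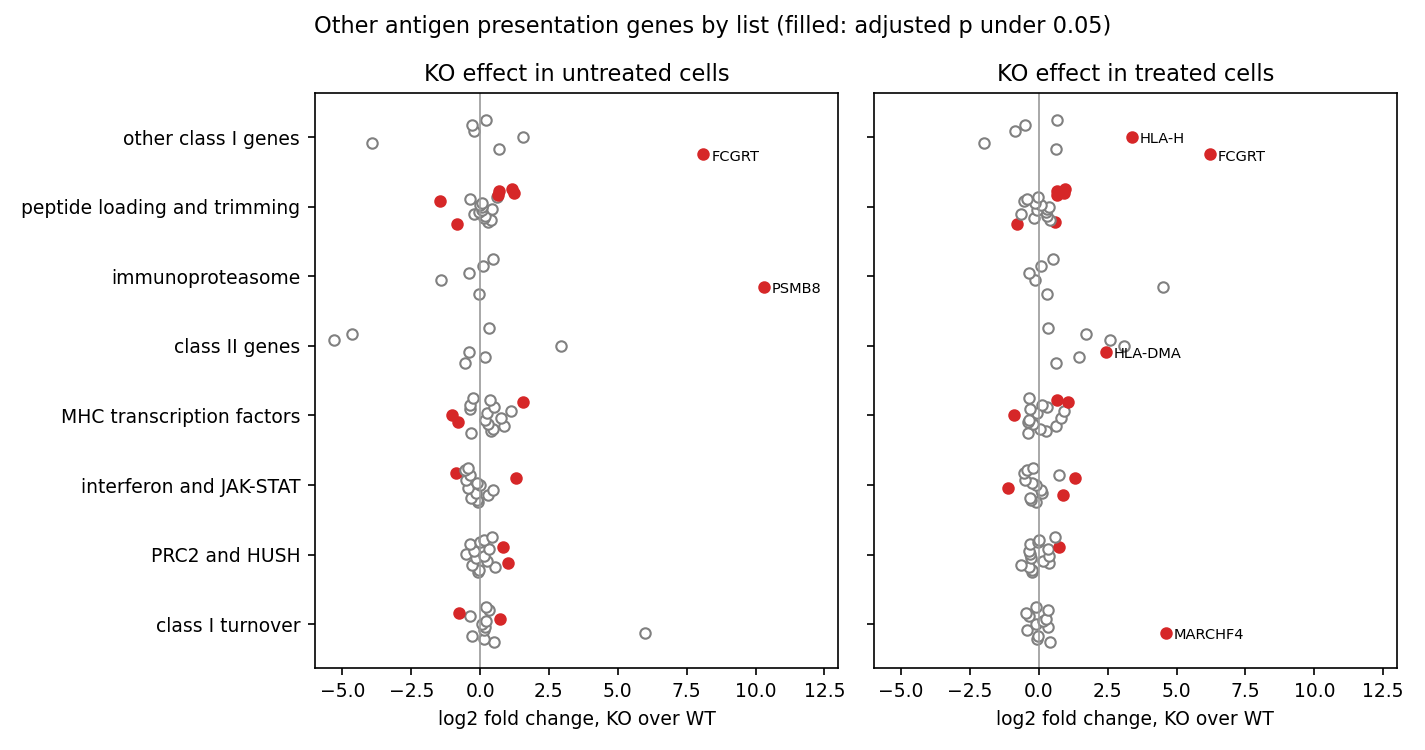
Log2 fold change, KO over WT, of every tested gene in 8 lists of antigen presentation genes, in untreated and treated cells, with filled symbols where the adjusted p was under 0.05. FCGRT lies at 8.11 in untreated and 6.21 in treated cells, and the size for PSMB8 at 10.3 depends on the prior count because untreated WT was at 0.

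The 5 tested genes on each side of every member, 72 distinct genes that are not members, were examined for changes beside the members. In untreated KO 9 of the 72 rose and 3 fell, and in treated KO 11 rose and 0 fell, against 22.6% and 19% of all genes called. With butyrate 1 rose in WT and 1 in KO. Among the genes higher in KO, LOC100294145, CETP, HCP5 and PSMB8 passed the filter on low counts only through KO libraries. A difference from WT was thus built into their selection, and their calls are given as a description. HCP5 and PSMB8 were at 0 in all untreated WT libraries, and HCP5 held at most 15 counts in treated WT. Near HLA-B and HLA-C, the stress ligand gene MICA rose by 0.84 (adjusted p = 0.0135) in untreated and 1.06 (adjusted p = 0.00412) in treated KO, and MICB by 1.06 (adjusted p = 0.0248) and 1.20 (adjusted p = 0.0158). The MICA call in treated cells held in all 6 fits without 1 library, and that in untreated cells was lost without untreated WT replicate 1 or 3 or untreated KO replicate 1 (0.0566). MICB was lost in untreated cells without WT replicate 1 or 3 (0.0970) or KO replicate 2 or 3, and in treated cells without KO replicate 2 (0.0819). Beside TAP1 and TAP2, LOC100294145 was at 0 in all 6 WT libraries and at 47.3 to 81.6 CPM in untreated KO and 60.3 to 75.3 CPM in treated KO, which is at least 481-fold and at least 538-fold higher than the limit of 3 counts per library. Beside TAP2, GPSM3 rose by 0.90 (adjusted p = 0.00887) and 1.28 (adjusted p = 0.00122), the former lost without untreated WT replicate 3 (0.0560). Beside NLRC5, CETP was at 0 in untreated WT and at 0.0535 to 0.802 CPM in untreated KO, with 0.965 to 1.49 CPM in treated KO. No neighbour of HLA-E or TAPBP was called in any of the 4 comparisons.

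Genes with the most similar pattern over the 12 libraries were found by the root mean square difference of centred log2 CPM. For HLA-B they were CD7 (0.85), CPXM1 (1.00) and HAP1 (1.00), among 1720 genes that varied enough to be compared. For HLA-C they were FRAS1 (1.04), NOX5 (1.07) and LIN28A (1.12) among 609, and for NLRC5 TNFRSF19 (0.79), CLDN11 (0.80) and PYY (0.81) among 1771. HLA-E was nearest to LTBP4 (0.22) and MAPT (0.22) among 9999, TAP1 to SPOCD1, LRRC10B and STON1 (0.40 to 0.48 among 6033), and B2M to the ribosomal protein genes RPL29, RPL5 and RPL24 (0.11 to 0.14 among 15744). No member was among the nearest genes named for another. For HLA-C, NLRC5 ranked 48 of 609 and HLA-B 181. For HLA-B, NLRC5 ranked 127 of 1720 and HLA-C 522, and for TAP1, HLA-E ranked 141 of 6033.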

How the data were processed

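RNA sequencing of 12 K562 libraries in 4 groups of 3 was analysed from the counts that the authors deposited, a single table with 1 line per gene symbol. Groups and replicate numbers came from the sample titles. The submitters' processing notes name FastQC 0.12.1, STAR 2.7.11b and hg38. The counting tool, the annotation and the use of strand are not given in the sources used here, so reads of near-identical class I genes can be split between rows. Nothing says that replicates were separate cultures, so p-values measure the spread between these libraries. No replicates held the same library (smallest chi-square per degree of freedom 40.0).

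Counts were tested in R 4.3.3 with edgeR 4.0.16 (filterByExpr with minimum count 10, 15805 of 28278 genes kept, TMM scaling, 1 quasi-likelihood model of 4 group means over 12 libraries, Benjamini-Hochberg threshold 0.05). SE is the absolute log2 fold change divided by the root of F. The limit of detection was 3 counts per library, and it and the Wilson 95% intervals cover counting error only. The test was tried on simulated counts, where it recovered 82% of 4-fold and 98% of 16-fold changes for butyrate in WT (15480 genes), and 88% and 100% for KO in untreated cells (15430 genes). Only genes with a mean level well above the limit of detection were changed there. Every group started from the same mean, and no replicate effect was simulated. These rates do not cover genes near 0 in a group, such as HLA-B, HLA-C and NLRC5 in untreated WT.

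Members and lists were chosen with earlier results of these data known. All 9 members were named, and from each list genes past the threshold, at most 4 per comparison by adjusted p, from which examples were taken. EZH2, NCR1, HBE1, MS4A1 and MARCO were added after their values were seen. A few genes were left out of the lists and of the genes named, and are not reported here. Neighbours named are examples of those past the threshold. Promoter sequences and gene order are from RefSeq GRCh38.p14. Same-numbered libraries of the groups compared deviated together (correlations 0.195 to 0.409 for butyrate in WT, 0.147 to 0.468 in KO, 0.210 to 0.361 for KO in untreated and 0.315 to 0.595 in treated cells). In the same order, libraries of different numbers were at -0.439 to 0.186, -0.441 to 0.123, -0.288 to 0.0692 and -0.512 to 0.343. The last of these ranges overlapped with that of the same numbers. A pairing by number was thus read from the data. The main model had no replicate term, and only the replicate block used this pairing. Alternatives were RLE size factors, library size alone, DESeq2 1.42.0, other filters, a replicate block, only the 6 libraries compared, leaving out libraries, and HLA-B and HLA-C summed.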

Additional observations from a re-analysis of the deposited data

How the results depend on the processing

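In untreated WT, HLA-C had 0 counts in every library, HLA-B 0, 0 and 15 and NLRC5 0, 8 and 3, so fold changes against that group are imprecise. Over the 9 members, 5 comparisons and all settings, 672 values had the direction and call given in the text, 34 lost the call, 11 gained one and 41 changed sign. The number of genes called for butyrate in WT was 1331 by DESeq2, 1361 with the replicate block and 63 with only the 6 libraries compared. For butyrate in KO it was 1538 by DESeq2, 304 with at least 10 counts in every library and 1852 with the replicate block. For KO in untreated cells it was 2334 with that filter, and in treated cells 1947 with that filter, 4612 with the replicate block and 1802 with only the 6 libraries. For the interaction DESeq2 called 81, no filter 2, at least 10 counts in every library 1 and the replicate block 3. Members called were 0 in each of the 4 comparisons with at least 10 counts in every library, which removes HLA-B, HLA-C and NLRC5 by construction. Members called for butyrate were 4 in WT and 5 in KO with the replicate block, and 0 in WT with only the 6 libraries. Beyond the calls given above the replicate block changed no other call of a member. It lowered the share of calls that were higher from 76.6% to 63.5% for butyrate in WT and from 82.5% to 66.5% in KO. With library size alone the median of all genes for butyrate in KO was 0.12, and 62.0% of the calls for KO in treated cells were higher, against 53.3% with TMM.

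Leaving out libraries gave 0 to 1884 genes called for butyrate in WT, 0 to 2164 in KO, 1018 to 4314 for KO in untreated cells, 684 to 4059 in treated cells and 0 to 9 for the interaction. Members called ranged from 0 to 3, 0 to 5, 3 to 4 and 2 to 4 in those 4 comparisons. In each of these fits the spread of a gene was estimated over all groups together, including those with fewer libraries.

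Signs that changed were all of uncalled values. B2M for butyrate in WT was 0.0326 with at least 10 counts in every library. TAP1 for KO in untreated cells was -0.0081 (RLE size factors), -0.0307 (library size alone), -0.00995 (DESeq2), -0.00942 (at least 10 counts) and -1.32e-05 (only the 6 libraries). HLA-E for KO in treated cells was -0.0134 with the replicate block and CIITA -0.00125 with only the 6 libraries. When libraries were left out, values ranged as follows. For butyrate in WT, B2M ranged from -0.0841 to 0.0328 and SLC48A1 from -0.31 to 0.0578. For butyrate in KO, B2M ranged from -0.37 to 0.0936 and TAPBP from -0.48 to 0.0777. For KO in untreated cells, TAP1 ranged from -1.02 to 0.56 and TAPBP from -0.43 to 0.0986. For KO in treated cells, HLA-E ranged from -0.46 to 0.38, TAP1 from -0.17 to 0.83, CIITA from -0.24 to 0.20 and TAPBP from -0.0526 to 0.352. For the interaction, TAP1 ranged from -0.18 to 1.31, NLRC5 from -0.55 to 2.32, HLA-B from -6.29 to 0.13 and B2M from -0.34 to 0.12. The cause of these shifts was not tested.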
